A study of Mus musculus with 22 samples.

Results

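Pianp, Grap, Camk2b, Cep85, Cnbd2, Mpeg1, Gm42031, Gm16867 and Gm27177 are 9 mouse genes outside chromosome 1 whose RNA differed very strongly between VISTA knockout (KO) and wild-type (WT) samples. They were picked out of 35255 genes listed in 3 count tables for the size of their KO against WT differences in at least 1 of those tables, and no numerical limit was set. Their KO against WT values are therefore described without a test, and tests are kept for measures that did not choose them. In the tumor samples, 4 of them (Camk2b, Cnbd2, Cep85 and Gm42031) were 16.02 to 62.8 times higher in KO than in WT, and Mpeg1 was at 10.5% of its WT level. Those 5 genes had overlapping WT and KO values in both culture experiments. The other 4 (Grap, Gm16867, Gm27177 and Pianp) separated the genotypes in all 3 experiments, with the lowest KO library above the highest WT library. Of all tested genes, 10.7%, 16.9% and 13% did so in normoxia, hypoxia and tumor samples. The share that did so in all 3 was not counted. In bulk RNA, more cells of a type and more RNA per cell cannot be told apart.

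The RNA came from C57BL/6N animals, either WT or VISTA KO, and was sequenced in 22 libraries. Bone marrow myeloid progenitors grown with GM-CSF and IL-6 in normal oxygen until day 4 gave 4 WT and 4 KO libraries. Bone marrow myeloid cells held in hypoxia for 24 hours gave another 4 and 4, and the labels name no cytokines for them. Tissue of MC38 tumors (a mouse colon carcinoma line) at day 7 gave 3 WT and 3 KO libraries. The labels do not say which bases of Vsir, the gene of VISTA, were removed, nor the age of the animals. They also do not say whether myeloid cells were purified from the tumors, although the names of the deposited tables speak of suppressor cells. Only the normoxia replicates are described as biologically separate, so p-values measure the spread between these samples, which may be technical elsewhere.

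VISTA is an inhibitory checkpoint protein of myeloid cells and T cells. The 9 genes belong to no common pathway. Pianp is a membrane protein that binds PILRα, an inhibitory receptor of myeloid cells, and Grap is an SH2 and SH3 adaptor related to Grb2 that links receptors to Ras, best known from lymphocytes. Camk2b is the beta subunit of the calcium and calmodulin-dependent kinase II of neurons. Cep85 is a centrosomal protein with a role in centriole assembly, and Cnbd2 is a cyclic nucleotide-binding protein known from sperm. Mpeg1 (perforin-2) is a pore-forming protein with which macrophages attack engulfed bacteria. Gm42031 is annotated as a long intergenic RNA, Gm27177 as an antisense RNA, and Gm16867 as a protein-coding gene.

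**Figure D1:**
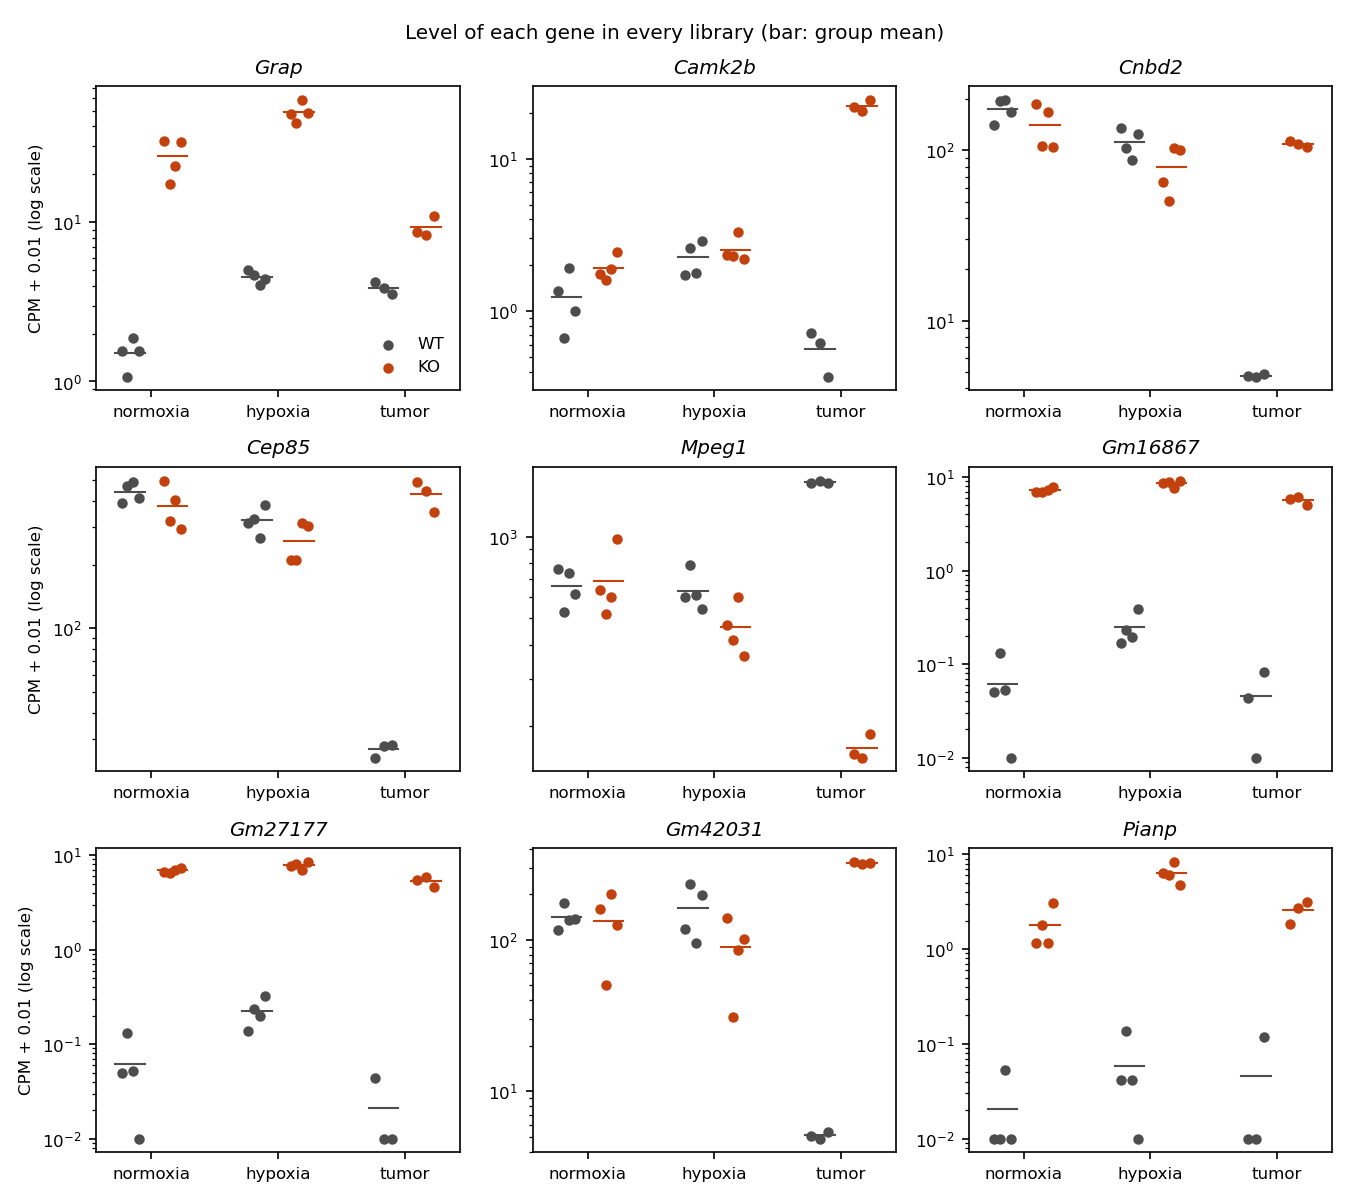
Level of each of the 9 genes in every library (log axis, CPM of the TMM-adjusted library size plus an offset of 0.01), by experiment, with WT in grey, KO in orange and a bar at each group mean. Camk2b, Cnbd2, Cep85, Gm42031 and Mpeg1 separate by genotype in the tumor samples and overlap in both cultures, while Grap, Gm16867, Gm27177 and Pianp separate in all 3 experiments.

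Total counts per library ran from 23409142 to 23722932 in normoxia and from 30839108 to 31385825 in hypoxia. The tumor WT libraries held 27452024 to 31716200 counts and the tumor KO libraries 19119985 to 23089943. Vsir itself stood at 24.8%, 26.9% and 25.8% of the WT mean in KO normoxia, hypoxia and tumor libraries, with no overlap (exact two-sided permutation p = 0.0286, 0.0286 and 0.1, each the smallest its design allows). Monocyte and macrophage markers were abundant in the tumor tissue. Their 15 genes summed to 22563 to 28147 TMM-adjusted CPM (read counts of a gene scaled to a common library size) in WT and 27022 to 32591 CPM in KO libraries. By contrast, the 8 epithelial markers summed to 17.0 to 34.9 and 26.1 to 58.5 CPM, with Cldn4 not counted. CPM were scaled within each table, so a level is compared between experiments only where all culture libraries were scaled together.

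The most abundant of the genes per kilobase of exon in the tumor KO samples were Gm42031 (171 CPM per kb), Cep85 (81.7), Mpeg1 (38.3) and Cnbd2 (28.1). Grap (5.21), Camk2b (2.44), Pianp (0.896), Gm27177 (0.764) and Gm16867 (0.723 CPM per kb) were far lower. A filter on low counts left 13950 normoxia, 15018 hypoxia and 14370 tumor genes, and all 9 genes passed it in each table. Outside chromosome 1, 49 tumor genes had a fitted KO against WT difference of at least 2 on the log2 scale, and 8 of the 9 were among them. In normoxia the 9 genes held 4 of 50 such genes and in hypoxia 4 of 43. Among all normoxia genes, KO lay wholly above WT for 10.7% and wholly below for 9.33% (20% in all), and edgeR called 7.13% higher and 4.17% lower. For hypoxia the shares without overlap were 16.9% above and 15.7% below (32.6% in all), and edgeR called 17.4% higher and 17.6% lower. For the tumor table they were 13% above and 13% below (26.1% in all), and edgeR called 3.28% higher and 3.04% lower. The 9 genes were chosen on this contrast, so nothing is read from their own count beside these shares.

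**Figure D2:**
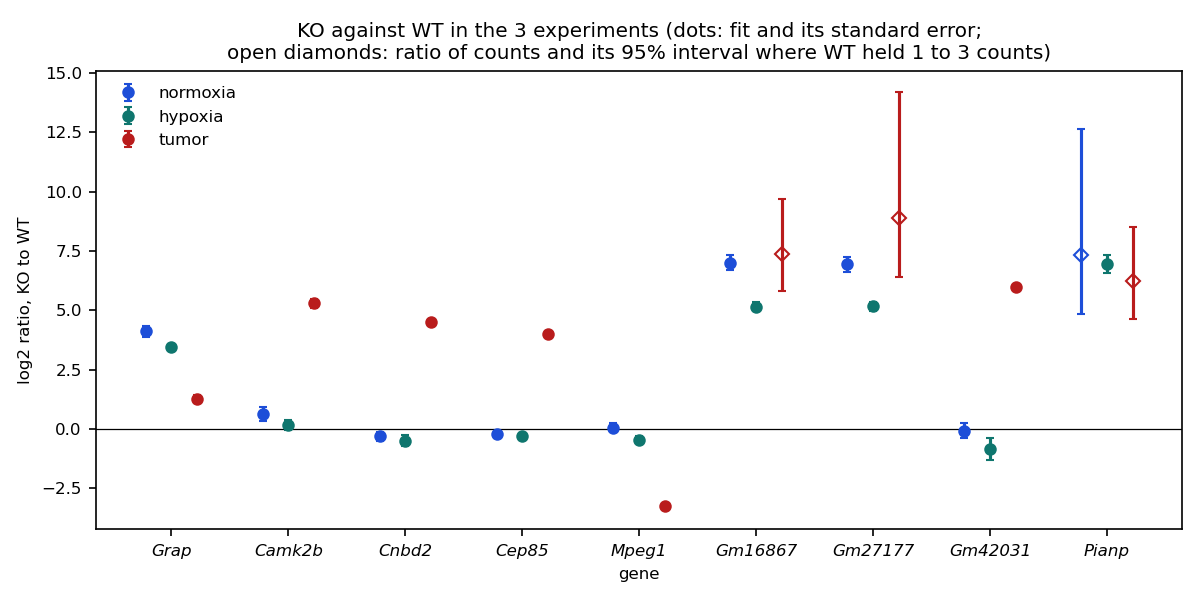
KO against WT difference (log2) of the 9 genes in normoxia, hypoxia and tumor, with standard errors as bars. Open diamonds mark genes with 1 to 3 counts in the whole WT group, drawn as the ratio of counts with its 95% interval.

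Cep85, Cnbd2 and Gm42031, all high in the KO tumors, shared sequence. Cep85 (ENSMUSG00000037443) lies on chromosome 4 at 134129858 to 134187112, minus strand. Cnbd2 (ENSMUSG00000038085) lies on chromosome 2 at 156312299 to 156375638, plus strand, and Gm42031 (ENSMUSG00000110386) on chromosome 8 at 85125872 to 85132289, minus strand (GRCm38). A stretch of 351 bases in the transcript Cep85-207 was 99.7% identical to Cnbd2-202, and a stretch of 366 bases was 96.4% identical to the opposite strand of Gm42031-201. The following 120 bases of that stretch are shown because all 3 genes carry them, with capitals marking the only base that differs from Cep85. The Cep85 window (chr4:134164582-134164701, minus strand) is in exon 4 of 4 of a noncoding transcript of that gene, the Cnbd2 window (chr2:156356557-156356676, plus strand) in the coding part of exon 10 of 10, and the Gm42031 window (chr8:85131670-85131789) in exon 1 of 2, printed as the complement of its transcript.
Cep85: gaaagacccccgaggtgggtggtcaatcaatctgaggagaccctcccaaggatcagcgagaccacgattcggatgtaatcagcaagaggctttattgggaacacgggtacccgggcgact
Cnbd2: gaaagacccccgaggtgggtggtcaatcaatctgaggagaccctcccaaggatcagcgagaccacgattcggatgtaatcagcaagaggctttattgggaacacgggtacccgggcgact
Gm42031: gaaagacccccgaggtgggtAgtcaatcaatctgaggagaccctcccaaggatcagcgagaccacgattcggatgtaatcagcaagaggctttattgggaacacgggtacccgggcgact

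Of all 50-base words in their transcripts, 59% of those of Gm42031, 25.2% of those of Cnbd2 and 8.3% of those of Cep85 also occurred in another gene. Cnbd2 in addition overlaps exons of Gm14252 (526 bases) and Scand1 (307 bases) on the opposite strand. How the counting treated reads that fit several places, and whether it used strand, are not given in the sources used here. Reads from such words may have been counted for another gene, and the levels of Cep85, Cnbd2 and Gm42031 are uncertain in that respect.

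Cep85, the centrosomal gene, read 24.6, 27.997 and 28.1 CPM in the 3 tumor WT libraries and 491, 446 and 355 CPM in the KO libraries. Its log2 difference was 4.00 ± 0.13 (SE), from 26.9 ± 2.001 to 431 ± 69.4 CPM (SD, n = 3 each), and every KO library stood far above every WT library. In normoxia the WT cultures gave 389, 472, 489 and 415 CPM and the KO cultures 497, 320.4, 405 and 296 CPM. The groups overlapped there and also in hypoxia, where WT cultures gave 315, 329, 268 and 383 CPM and KO cultures 209.7, 210.01, 314 and 303 CPM.

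Cnbd2, the cyclic nucleotide-binding gene, followed Cep85 closely. Tumor WT libraries gave 4.70, 4.68 and 4.85 CPM and KO libraries 113, 109 and 104 CPM, a log2 difference of 4.52 ± 0.09 (SE). Normoxia WT cultures read 140.03, 195, 198 and 168 CPM against 187, 106, 168 and 105 CPM in KO. Both cultures showed overlap, with hypoxia WT at 134, 103, 88.3 and 125 CPM and KO at 64.9, 50.2, 103 and 100.2 CPM. Tumor and culture libraries were not scaled together, so their levels are not compared here.

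Gm42031, the long noncoding RNA, had the greatest tumor difference of the 3. Its WT tumor libraries read 5.10, 4.87 and 5.40 CPM and its KO tumor libraries 327, 318 and 320.4 CPM, a log2 difference of 5.97 ± 0.09 (SE). In normoxia WT gave 116, 174, 135 and 137 CPM and KO gave 159, 50.3, 201 and 125 CPM. Hypoxia WT cultures gave 119, 232, 94.8 and 199 CPM and KO cultures 138, 30.9, 86.3 and 101 CPM, so KO replicate 2 was the lowest library in both cultures. Replicate numbers do not tie a normoxia library to a hypoxia one.

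The 3 genes moved together across the 22 libraries, after the mean of each experiment was removed from log2(CPM + 1). Pearson's r was 0.992 for Cnbd2 and Cep85, 0.961 for Cnbd2 and Gm42031 and 0.953 for Cep85 and Gm42031. The tumor genotype difference carries much of these values. With the mean of every group removed, r was 0.872 for Cnbd2 and Cep85, 0.583 for Cnbd2 and Gm42031 and 0.473 for Cep85 and Gm42031. Pairs that share sequence can share reads, so these are descriptions over libraries of the same 3 tables.

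Other genes that share sequence with any part of Gm42031-201 were looked up after the values of the 9 genes were known. They are therefore counted and their list is not tested. Besides Cep85 and Cnbd2, 12 genes share at least 200 bases at 90% identity or more with Gm42031-201, and 11 of them passed the filter. Among these, Chd9, AC158975.2 and Gm46223 had no match of 150 bases or more with Cep85 or Cnbd2. They need not carry the stretch printed above. In the tumor samples 5 of the 11 were called higher in KO (edgeR adjusted p under 0.05) and none lower, where 3.28% and 3.04% of all tested genes were called higher and lower. Gm43305, with 748 bases at 98.7% identity, went from 4.94 to 72.3 CPM, a log2 difference of 3.87 (edgeR adjusted p = 3.44e-10). AC102496.1 went from 0.283 to 5.87 CPM (4.35, adjusted p = 9.33e-06), Gm42427 from 0.321 to 5.08 CPM (3.98, adjusted p = 1.03e-05) and AC158975.2 from 1.17 to 10.2 CPM (3.12, adjusted p = 3.09e-06, all edgeR). These 4 kept their tumor call under each of the 10 alternatives. Gm46223 was called at 3.20 but not without KO replicate 2 or 3 (edgeR adjusted p up to 0.0569).

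The other 6 tested genes that share sequence with Gm42031 were not called in the tumor samples. Chd9, a chromatin remodeler, has 337 bases at 98.5% identity and differed by 0.06 (edgeR adjusted p = 0.682), from 144 to 150.05 CPM. Apobec3, a cytidine deaminase of antiviral defence, differed by 0.22 and AI506816 by -0.50. Neither was called in the unpaired fit, while both were with the replicate number as a block (edgeR adjusted p = 0.00754 and 0.00192). In all, AI506816 was called in 4 of 10 tumor alternatives and Apobec3 in 1. Gm4316, with 614 bases at 92.3% identity, differed by 0.58 in the tumor samples (edgeR adjusted p = 0.139). It differed by 1.01 in normoxia and 1.05 in hypoxia, with no call in the main fit but in 2 of 12 hypoxia alternatives. The median over the 11 genes was 0.58 in the tumor samples against 0.01 over all genes tested. That median depends on the match required, and was 1.85 over the 10 tested genes with at least 300 bases and 1.96 over the 4 at 95% identity. In normoxia 1 of the 11 was called (Gm46223, higher). In hypoxia 2 were called higher (AC158975.2 and Gm46223) and 2 lower (AI506816 and Apobec3). The culture calls of Gm46223 were lost in 6 of 13 and 4 of 12 alternatives and that of Apobec3 in 4 of 12. Of the 11, only Chd9, Gm43305, Gm42427 and AI506816 were left at 95% identity, and Gm43305 and Gm42427 of these were called in the tumor samples.

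**Figure D3:**
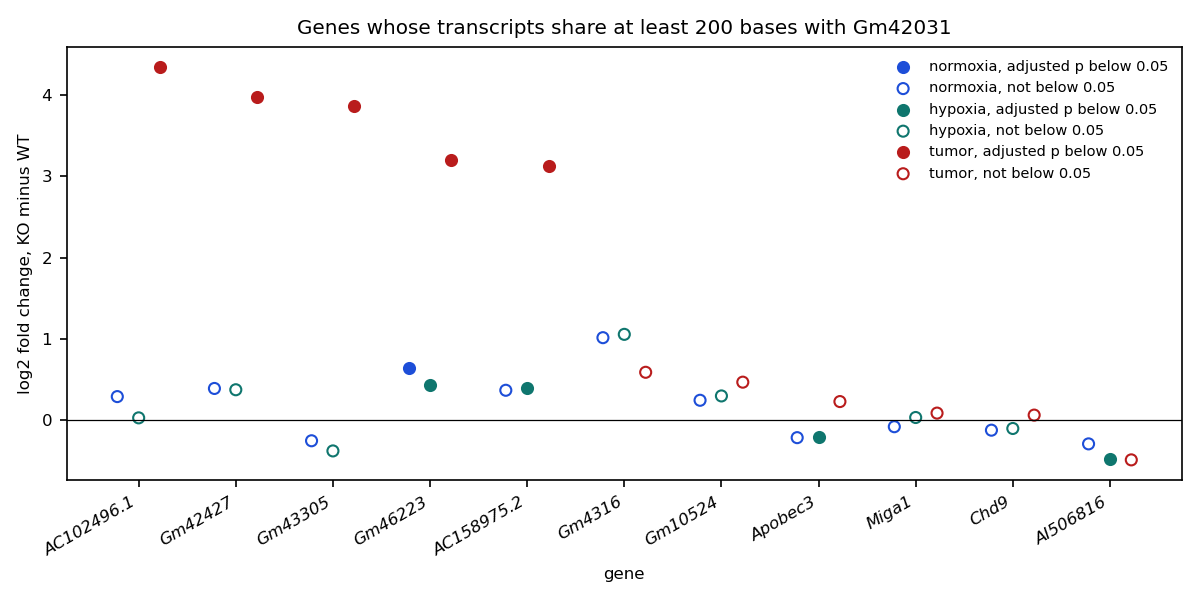
KO minus WT difference (log2, vertical axis) of the 11 tested genes that share at least 200 bases with Gm42031, with 1 point per gene and experiment, filled where the edgeR adjusted p was under 0.05. The tumor values reach from -0.50 for AI506816 to 4.35 for AC102496.1, and 5 of them are filled.

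Gm16867 (ENSMUSG00000093954, chromosome 14, 69363504 to 69503362) and Gm27177 (ENSMUSG00000098975, chromosome 14, 69582164 to 69683286, both minus strand) stand in a duplicated region. All 2946 bases of Gm27177-201 occur unchanged in Gm16867-207. The first 100 bases of Gm27177-201 are printed because no count table can tell these transcripts apart from such reads. The window is chr14:69640175-69640274 (minus strand, exon 1 of 3) in Gm27177 and chr14:69421900-69421999 (minus strand, coding, exon 2 of 4) in Gm16867, and no base differs.
Gm27177: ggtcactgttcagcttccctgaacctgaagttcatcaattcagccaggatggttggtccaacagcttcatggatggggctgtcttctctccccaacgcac
Gm16867: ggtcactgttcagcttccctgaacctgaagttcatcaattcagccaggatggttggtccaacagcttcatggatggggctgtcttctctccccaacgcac

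Of their 50-base words, 98.2% (Gm16867) and 100% (Gm27177) also occurred in another gene, for the most part in each other. Gm16867 overlaps exons of Entpd4 on the opposite strand by 2110 bases and Gm27177 those of Entpd4b by 1700 bases. Entpd4 and Entpd4b encode nucleotide-hydrolysing enzymes of the Golgi. The values of the 2 genes are therefore 1 measurement with an uncertain source, and r between them was 1 over the 22 libraries and 0.942 within groups.

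Gm16867 was nearly absent from WT normoxia cultures, with 0.0397, 0.123 and 0.0424 CPM in replicates 1 to 3 (1, 3 and 1 counts) and no count in replicate 4, which allows up to 0.124 CPM. The KO cultures gave 6.87, 6.92, 7.28 and 7.84 CPM. Hypoxia WT cultures read 0.160, 0.224, 0.187 and 0.376 CPM and KO cultures 8.57, 8.84, 7.62 and 9.11 CPM. All KO libraries lay above all WT libraries, with 132 times (95% counting interval 56.4 to 408.6) and 35.0 times (24.4 to 52.1) as many counts per total count in KO. For the tumors, 3 WT counts in all (0.0336, 0 and 0.0724 CPM) faced 5.80, 6.09 and 5.004 CPM in KO, a ratio of 167 with an interval from 56.8 to 815.7. The empty WT library allows up to 0.0961 CPM, and these intervals cover counting error only.

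Gm27177 gave the same picture with slightly lower KO values. Normoxia KO libraries read 6.70, 6.46, 7.01 and 7.38 CPM, hypoxia ones 7.67, 8.08, 7.03 and 8.49 CPM, and tumor ones 5.45, 5.85 and 4.54 CPM. The normoxia, hypoxia and tumor WT groups held 5, 27 and 1 counts, and the KO to WT ratios were 126 (53.7 to 389.5), 35.6 (24.3 to 54.4) and 472 (84.1 to 18680). No WT library of any experiment reached the lowest KO library.

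The annotated genes around the pair differed far less. Entpd4 went from 22.2 to 14.5 CPM in normoxia (log2 difference -0.61, edgeR adjusted p = 0.0139) and Entpd4b from 23.3 to 15.5 CPM (-0.58, edgeR adjusted p = 0.0152). The call of Entpd4b was lost without WT replicate 1 (edgeR adjusted p = 0.0538). Neither was called in hypoxia or in the tumor samples. Gm21451, whose exons overlap Gm16867 by 301 bases on the opposite strand, rose from 0.589 to 2.15 CPM in the tumor samples (1.86, edgeR adjusted p = 0.012), but not without KO replicate 1 (edgeR adjusted p = 0.0828). Slc25a37, a mitochondrial iron carrier, was called lower in normoxia (-0.50) and higher in the tumor samples (0.42). Its calls were lost in 2 of 13 and 5 of 10 alternatives, with edgeR adjusted p up to 0.0743 (without WT replicate 1) and 0.149 (without WT replicate 2).

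Pianp (ENSMUSG00000030329, chromosome 6, 124996694 to 125003096, plus strand), the PILRα ligand, shared no 50-base word with another gene. In normoxia the 4 WT cultures held 1 count together, in replicate 3 (0.0424 CPM), and the empty libraries allow up to 0.119, 0.123 and 0.124 CPM. The KO cultures read 1.15, 1.80, 1.16 and 3.03 CPM. In hypoxia WT gave 0.0319, 0.128, 0.0312 and 0 CPM and KO gave 6.37, 6.03, 8.34 and 4.78 CPM. The lowest KO library stood far above the highest WT library in each experiment. Per total count, KO held 162 times (28.7 to 6439) the WT counts in normoxia and 130.8 times (59.8 to 357.6) in hypoxia. Tumor WT libraries held 3 counts, all in replicate 3 (0.109 CPM), against 1.83, 2.69 and 3.15 CPM in KO, a ratio of 74.6 (25.1 to 365.7). Even in KO the gene stayed low, with 1.68 to 2.92 CPM per kb of exon over the hypoxia libraries.

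Grap (ENSMUSG00000004837, chromosome 11, 61653265 to 61672784, plus strand), the adaptor, was detected in every library. Normoxia WT cultures gave 1.55, 1.06, 1.87 and 1.54 CPM and KO cultures 32.5, 17.3, 22.6 and 32.007 CPM, a log2 difference of 4.11 ± 0.24 (SE). In hypoxia WT gave 4.98, 4.64, 4.02 and 4.42 CPM and KO 47.8, 42.3, 58.7 and 48.5 CPM, a difference of 3.45 ± 0.11. The tumor difference was the smallest at 1.27 ± 0.17, from 4.20, 3.88 and 3.51 CPM in WT to 8.67, 8.35 and 10.99 CPM in KO. KO exceeded WT by 17.4, 10.9 and 2.42 times in the 3 experiments, with no overlap in any of them. Whether the tumor difference is smaller than the culture ones was not tested, since the tables differ in cells and scaling.

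Markers of other blood cells differed between the genotypes in the cultures, where Grap, Pianp and the chromosome 14 pair separated. The counts below stand beside 7.13% of all genes called higher and 4.17% lower in normoxia. In hypoxia those shares were 17.4% and 17.6%. The 9 B and plasma cell markers summed to 36.6 to 51.4 CPM in WT and 96.1 to 155 CPM in KO normoxia cultures, and to 69.7 to 85.6 against 128 to 211 CPM in hypoxia. In normoxia 4 of 6 tested were called higher, and in hypoxia 4 of 7 higher and 1 lower (Pax5). The higher ones were Igkc, Igha, Jchain and Ighm, and Igkc went from 1.68 to 25.5 CPM in normoxia. Cd79a and Cd79b, the signalling chains of the B cell receptor, were not called in either culture. Of 4 tested in the tumors none was called by edgeR or DESeq2, with 1 at an unadjusted p under 0.05 and 1 called with the block, while the sum was 52.8 to 60.7 in WT and 60.1 to 74.2 CPM in KO. Neutrophil markers were higher in KO for 6 of 12 tested in normoxia and 11 of 12 in hypoxia, mast cell and basophil markers for 7 of 7 and 8 of 9, and eosinophil markers for 4 of 7 and 9 of 9, with none lower. Dendritic cell markers were higher for 4 of 8 tested in normoxia (Ciita, H2-Aa, H2-Ab1 and H2-Eb1), with none lower, and summed to 42.9 to 90.1 CPM in WT and 120.9 to 278.2 CPM in KO. In hypoxia 1 of 10 was higher and 1 lower. Of the 15 monocyte and macrophage markers, the complement genes C1qa (2.76), C1qb (1.91) and C1qc (2.09) were called higher in normoxia, and 12 were not called. In hypoxia 2 of the 15 were called higher and 2 lower. The 7 erythroid markers summed to 34.5 to 116 CPM in WT and 8.91 to 16.5 CPM in KO hypoxia cultures, and 4 of 5 tested were lower. The part of these cells in the values of Grap, Pianp, Gm16867 and Gm27177 was not tested.

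Camk2b (ENSMUSG00000057897, chromosome 11, 5969644 to 6066362, minus strand), the neuronal kinase subunit, separated in the tumor samples. WT libraries gave 0.705, 0.609 and 0.362 CPM and KO libraries 21.8, 20.6 and 24.3 CPM, a log2 difference of 5.29 ± 0.19 (SE). Normoxia WT cultures gave 1.35, 0.654, 1.91 and 0.997 CPM and KO cultures 1.74, 1.59, 1.88 and 2.43 CPM. Hypoxia WT gave 1.72, 2.59, 1.78 and 2.88 CPM and KO 2.34, 2.27, 3.27 and 2.18 CPM. The groups overlapped in both cultures, with differences of 0.63 ± 0.29 and 0.16 ± 0.21. Few neuron and glia markers were detected beside it. Of 9 such markers, Snap25, Syt1, Rbfox3 and Gfap were not counted in the tumor table, and of the 3 tested (Syn1, Tubb3 and Mbp) none was called or had an unadjusted p under 0.05. Their sum was 63.6 to 67.3 CPM in WT and 60.1 to 72.7 CPM in KO tumor libraries.

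Mpeg1 (ENSMUSG00000046805, chromosome 19, 12460779 to 12465283, plus strand), the macrophage pore-former, was the only one of the 9 that was lower in KO tumor samples. WT libraries gave 1580.5, 1606 and 1575 CPM and KO libraries 158, 153 and 187 CPM, a log2 difference of -3.26 ± 0.09 (SE). The 3 KO libraries kept 10.5% of the WT mean. Normoxia WT cultures read 759.5, 528, 733 and 613 CPM and KO cultures 639, 517, 600.2 and 982 CPM, with a difference of 0.06 ± 0.18. In hypoxia WT gave 597, 787, 610.04 and 539 CPM and KO 472, 416, 601 and 363 CPM, a difference of -0.45 ± 0.15, and the groups overlapped in both cultures. Mpeg1 shared no 50-base word with another gene.

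Other macrophage markers differed far less than Mpeg1 in the tumor samples. Of 15 tested monocyte and macrophage markers none was higher and 2 were lower, Itgam (-0.41, edgeR adjusted p = 0.00373) and Ms4a7 (-0.36, edgeR adjusted p = 0.0323), and 9 were called with the replicate block. Csf1r, the macrophage growth factor receptor, read 2594 ± 170 CPM in WT and 2708 ± 183 CPM in KO (SD, n = 3 each). Of the T and NK cell markers, 6 of 12 tested were called lower in the KO tumors and none higher (9 called with the block). Over all genes 3.04% were called lower and 3.28% higher. The 6 were Cd28, Cd3e, Trac, Lck, Cd4 and Cd3g. Of those not called, the NK cell genes Ncr1 (1.55) and Klrb1c (0.14) were higher. Nkg7 (-1.05), Cd8a (-1.56), Cd3d (-1.19) and Cd8b1 (-1.11) were lower. The list summed to 29.97 to 61.4 CPM in WT and 12.5 to 19.8 CPM in KO. Of the dendritic cell markers, 5 of 9 tested were called higher (Ciita, Flt3, H2-Aa, H2-Ab1 and H2-Eb1), with none lower. Itgax (0.14), Xcr1 (-0.03), Zbtb46 (1.04) and Clec9a (1.08) were not called. The list summed to 5636 to 7694 CPM in WT and 9572 to 13659 CPM in KO. H2-Ab1, H2-Aa and H2-Eb1 held most of it, with WT means of 3417, 1571 and 1354 CPM. Erythroid markers were higher for 3 of 5 tested and none lower (4 called with the block), with sums of 76.5 to 125.6 CPM in WT and 163.5 to 183.5 CPM in KO. The part of these shifts in the Mpeg1 value was not tested.

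The comparison of hypoxia with normoxia, averaged over both genotypes, did not enter the choice of the genes. It also differs in culture length, in the cells and cytokines that the labels describe, and in the table. None of these, nor a different make-up of cells, can be told apart from oxygen. By edgeR over all 16 culture libraries, 5 of the 9 genes were higher in hypoxia and 2 lower at an adjusted p under 0.05. Among all 15293 genes tested, 32.8% were higher and 32.8% lower, so 65.5% were called in all. Grap was higher by 1.36 ± 0.14 (log2, SE; edgeR adjusted p = 1.19e-07), in WT (1.44 to 4.69 CPM) and in KO (25.1 to 51.4 CPM) alike when all culture libraries were scaled together. Gm16867 was higher by 1.29 ± 0.26 (edgeR adjusted p = 0.00025), Gm27177 by 1.18 ± 0.26 (0.000545) and Camk2b by 0.75 ± 0.18 (0.00143). For Gm16867 and Gm27177 these averages lean on WT groups with few counts (means of 0.0493 to 0.246 and 0.0493 to 0.221 CPM). In KO, Gm16867 went only from 6.96 to 8.89 CPM and Gm27177 from 6.63 to 8.14 CPM. Cnbd2 (-0.62 ± 0.17, edgeR adjusted p = 0.00391) and Cep85 (-0.38 ± 0.12, edgeR adjusted p = 0.00741) were lower.

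Pianp was higher in hypoxia by 1.92 ± 0.75 (edgeR adjusted p = 0.0301), in KO from 1.72 to 6.65 CPM. Its call rested on a few WT counts and was lost without normoxia WT replicate 1, 2 or 4 (1.77, 1.77 and 1.78; edgeR adjusted p = 0.0573 to 0.0592) or hypoxia WT replicate 2 (1.41, edgeR adjusted p = 0.222). Mpeg1 (-0.20 ± 0.14, edgeR adjusted p = 0.218) and Gm42031 (-0.08 ± 0.32, edgeR adjusted p = 0.83) were not called. With library size as the only scaling, Mpeg1 was called lower (-0.31, edgeR adjusted p = 0.0435).

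Genes related to the 9 by function were counted from lists made with earlier results of these data known. In lists of 7 families, edgeR called 12 normoxia, 34 hypoxia and 8 tumor genes. The tumor count was 19 with the replicate block, 2 without KO replicate 1 or without KO replicate 2, 5 without WT replicate 1 and 3 without WT replicate 2. The normoxia count ranged from 2 (without WT replicate 1) to 19 (without KO replicate 2). It was 5 without KO replicate 3, 7 without WT replicate 2 and 6 without WT replicate 4. The shares called over all genes were 11.3%, 34.9% and 6.32%.

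Of the Grb2 adaptors and their partners, relatives of Grap, 2 of 20 tested rose in normoxia and 2 of 22 fell in the tumors. In hypoxia 8 of 21 rose and 2 fell, where 17.4% and 17.6% of all genes were called higher and lower. Dok3, an inhibitory adaptor of B cells and macrophages, rose in normoxia (126 to 196 CPM, 0.64, edgeR adjusted p = 0.0123, but 0.0523 without WT replicate 1) and in hypoxia (136 to 182 CPM, 0.43). Grap2, another adaptor of the family, rose in hypoxia (3.74 to 6.64 CPM, 0.83, edgeR adjusted p = 0.000337). Sos2, a Ras activator, rose in both cultures (0.46 and 0.47), with the normoxia call lost in 8 of 13 alternatives. Ptpn11, a phosphatase (-0.36), and Lat, the linker of the T cell receptor (-1.59), were lower in the tumors. Each lost its call in 5 of 10 alternatives, and 4 genes of the list were called with the replicate block. In hypoxia Lat rose from 4.88 to 7.17 CPM (0.55, edgeR adjusted p = 0.0107), in every alternative. The median log2 difference of the list was 0.036, 0.17 and 0.0019 in the 3 experiments, beside -0.020, -0.015 and 0.0098 over all genes.

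Among PILR receptors and their ligands, around Pianp, the activating receptors Pilrb1 and Pilrb2 rose in both cultures. Pilrb2 went from 30.7 to 53.8 CPM in hypoxia (0.81, edgeR adjusted p = 0.000152) and from 51.6 to 79.0 CPM in normoxia (0.61, edgeR adjusted p = 0.0239). Pilrb1 differed by 0.38 and 0.45. The hypoxia calls held in every alternative, and the normoxia calls were lost in 5 (Pilrb2) and 2 (Pilrb1) of 13, at edgeR adjusted p up to 0.091. None of the other tested genes of that list was called in the cultures, and in the tumor samples Ptpn11 was the 1 called of 8, against 4 with the replicate block.

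Of the kinases and calmodulins around Camk2b, 3 of 16 were called higher and 4 lower in hypoxia (5 called with the block). Over all hypoxia genes 17.4% were called higher and 17.6% lower. Ppp3ca, a catalytic subunit of calcineurin, rose from 131 to 197 CPM (0.59, edgeR adjusted p = 1.96e-05). Ppp3cc (-0.83) and Camk2d (-0.36), another kinase II subunit, fell. In normoxia none of 14 was called by edgeR, with 5 at an unadjusted p under 0.05 and 3 called by DESeq2. For the tumors none of 14 was called by edgeR or DESeq2, with 2 at an unadjusted p under 0.05 and 3 called with the block.

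For the families of Cnbd2 and Cep85, hypoxia gave 6 calls of 13 and 4 of 20, beside 34.9% of all genes. Of the cyclic nucleotide-binding proteins 5 rose and 1 fell, led by Rapgef6 (101 to 144 CPM, 0.51) and Rapgef3 (0.85), exchange factors for Rap. Rapgef2 rose by 0.29. For the tumors, Pde4b, a phosphodiesterase that breaks down cyclic AMP, was the 1 called of 11 (152 to 230 CPM, 0.60, edgeR adjusted p = 0.00017), and 2 were called with the block. Of the centriole list 3 of 20 rose in hypoxia (Cenpj 0.37 and Nek7 0.28 among them) and Tubg1, a gamma-tubulin, fell (-0.48). Cep250 was the 1 called of 20 in the tumor samples (-0.31, lost in 6 of 10 alternatives). In normoxia edgeR and DESeq2 called none of either list, with 2 of 12 and 4 of 20 genes at an unadjusted p under 0.05.

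Relatives of Mpeg1 among the membrane attack, perforin and gasdermin genes gave few calls. Gsdme, a gasdermin, rose in hypoxia (18.4 to 30.6 CPM, 0.74, edgeR adjusted p = 0.000187) and in normoxia (0.87, lost in 6 of 13 alternatives). C7, a complement component, rose in hypoxia (1.56), and Cd59a, an inhibitor of the membrane attack complex, was lower in normoxia (-0.89, lost in 3 of 13 alternatives). Granzyme B (Gzmb) was the 1 called of 8 in the tumor samples, with 25.3 CPM in WT against 9.61 CPM in KO (-1.40, lost in 4 of 10 alternatives), and 2 were called with the block. In the list around Gm16867, Entpd5, an enzyme of the endoplasmic reticulum, rose in normoxia (0.51) and hypoxia (0.77) in every alternative. R3hcc1 (-0.58) and Entpd6 (-0.38, lost in 4 of 12 alternatives) were lower in hypoxia and Entpd7 (-0.52, lost in 3 of 10) in the tumor samples.

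Genes within 1 Mb of the 9 were tested because position did not enter their choice. Of these neighbours, edgeR called 48 of 264 for normoxia (18.2%, 27 higher and 21 lower), 116 of 287 for hypoxia (40.4%, 55 and 61) and 32 of 285 for the tumors (11.2%, 15 and 17), beside 11.3%, 34.9% and 6.32% of all genes. The tumor count was 58 with the replicate block, which also called more of all genes, so 58 is not to be set beside 6.32%. Within 0.5 Mb the shares were 18%, 41.3% and 13.9%, and within 2 Mb they were 15.9%, 38.4% and 11.4%. The tumor count fell to 12 without KO replicate 1 or without KO replicate 2, to 14 without WT replicate 2 and to 19 without WT replicate 1. The normoxia count was 15, 23 and 22 without WT replicate 1, 2 or 4 and 31 and 24 without KO replicate 1 or 3.

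**Figure D4:**
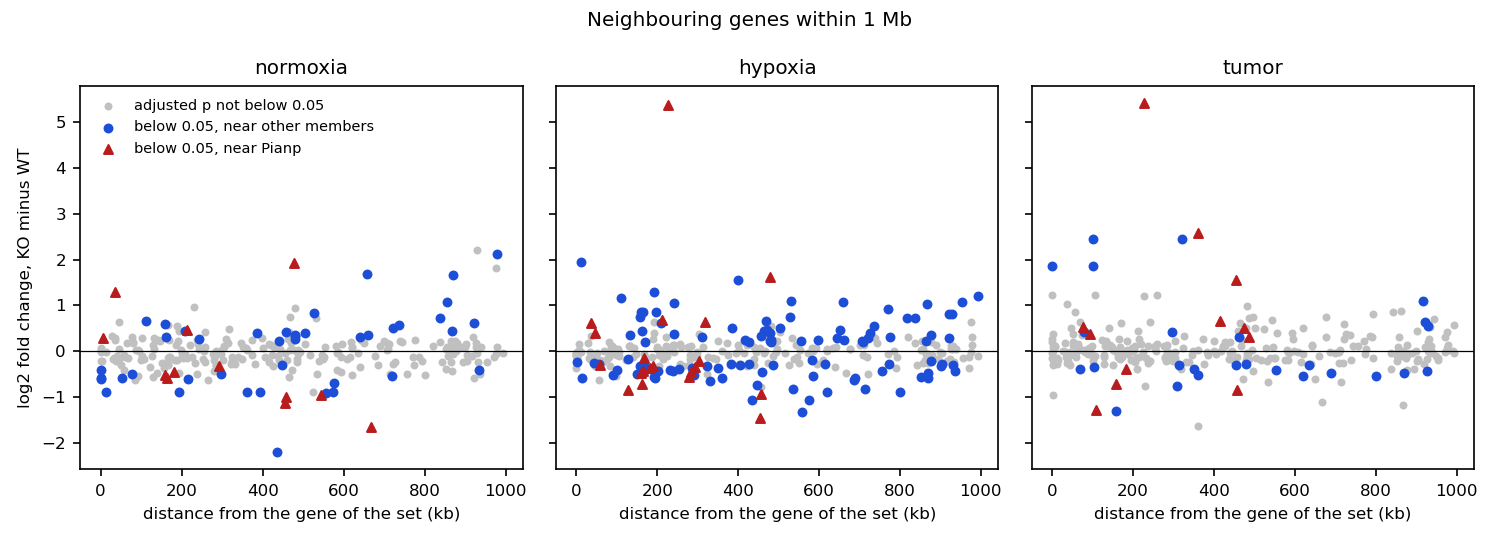
KO minus WT difference (log2, vertical axis) of each tested gene within 1 Mb, against its distance in kb from the nearby gene of the set, in 1 panel per experiment, with grey points not called, blue circles called and red triangles called near Pianp. Eno2, at 227 kb from Pianp, stands above all other points in hypoxia (5.38) and in the tumor panel (5.41).

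By share of called tumor neighbours, Gm16867 (28.6%), Pianp (25%) and Gm27177 (23.1%) came first. Gm16867 and Gm27177 lie close together, and their 6 called tumor neighbours are the same genes. The surroundings of Pianp held many of these calls, with 12 of 48 neighbours (8 higher, 4 lower; 17 with the block), and without them 20 neighbours remained called. Eno2, the neuronal enolase of glycolysis, lies 227 kb away. It rose from 0.331 to 13.9 CPM in hypoxia (5.38 ± 0.34, edgeR adjusted p = 3.01e-06) and from 0.920 to 39.6 CPM in the tumor samples (5.41 ± 0.14, edgeR adjusted p = 1.82e-10), and was too low for a test in normoxia. It kept its calls in every alternative. By contrast, Gapdh, another glycolytic enzyme 159 kb away, fell in all 3 experiments (-0.52, -0.47 and -0.72) in every alternative. Tpi1, triose phosphate isomerase, fell too (-0.46, -0.36 and -0.38), with the normoxia call lost in 5 of 13 and the tumor call in 2 of 10 alternatives. Cd9, a tetraspanin 457 kb away, fell in each comparison and alternative. Its means were 278 and 138 CPM in normoxia WT and KO, 258 and 134 CPM in hypoxia, and 72.1 and 40.0 CPM in tumors. Gm28809 rose in both cultures (1.93 and 1.61), Cd163, a scavenger receptor, was lower in normoxia (-1.65, but edgeR adjusted p = 0.0558 without WT replicate 1), and C1s2 was higher in the tumor samples (2.59, lost in 3 of 10 alternatives).

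Near Gm42031, Gpt2, a mitochondrial alanine transaminase 360 kb away, was lower in all 3 experiments (-0.88, -0.59 and -0.52). Its normoxia call was lost in 2 of 13 alternatives and its tumor call in 5 of 10, with edgeR adjusted p up to 0.168 without WT replicate 2. In hypoxia 20 of 46 neighbours were called, 16 of them lower. Mylk3, a myosin kinase, rose there (1.30). Gm26532 was higher in the tumor samples (1.11, lost in 4 of 10 alternatives), and 4930432K21Rik in hypoxia (1.07, lost in 3 of 12). The chromosome 14 pair had the same 6 called tumor neighbours. Slc39a14, a zinc and iron transporter, was lower in hypoxia (-0.89) and in the tumor samples (-0.54, but edgeR adjusted p = 0.0558 without KO replicate 2, with the call also lost without WT replicate 2). Gm27222 was higher in the tumor samples (2.44, lost in 3 of 10 alternatives), and in normoxia Hr rose (1.65) and Egr3 was lower (-0.89, lost in 3 of 13 alternatives).

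Near Grap, 4 of 37 neighbours were called in the tumors (7 with the block). Mapk7, the kinase ERK5, lies 159 kb away. It rose in the cultures, from 73.9 to 112 CPM in normoxia (0.60) and from 68.9 to 126 CPM in hypoxia (0.87), and fell from 64.3 to 26.2 CPM in the tumor samples (-1.30). Its normoxia call was lost without WT replicate 1 (edgeR adjusted p = 0.0548). Aldh3a1, an aldehyde dehydrogenase, fell in both cultures (-2.19 and -1.07). Fam83g, the nearest of these at 11.3 kb, rose in hypoxia (1.95), and Gm12276 rose in both cultures (1.69 and 1.07, with edgeR adjusted p = 0.0512 in hypoxia without KO replicate 3). On the same chromosome, Camk2b had 14 of 35 called neighbours in hypoxia and 1 of 32 in the tumor samples (3 with the block). Pgam2, a muscle enzyme of glycolysis (0.86), rose and the helicase Ddx56 (-0.57) fell in hypoxia in every alternative, while the hypoxia calls of Nacad (1.10) and Emid1 (0.72) were lost in 6 and 2 of 12.

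Near Cnbd2, Procr, the receptor of protein C, fell in normoxia (-0.91) and hypoxia (-1.32). Trp53inp2 rose in both (0.61 and 0.81), with the normoxia call lost in 4 of 13 alternatives, and Myl9, a myosin light chain, rose in hypoxia (1.57). Gm14168 (0.87 in hypoxia) lost its call in 10 of 12. Around Cep85, 14 of 38 neighbours were higher and 2 lower in hypoxia. Lin28a, an RNA-binding protein of stem cells, rose in both cultures (0.67 and 1.17), as did Sfn (0.83 and 0.75), in every alternative. Sytl1 rose in hypoxia (1.03) and in normoxia (0.43, lost in 6 of 13 alternatives). Paqr7 rose in hypoxia (0.31) and was lower in the tumor samples (-0.76, lost in 3 of 10 alternatives). Cep85 had 3 of 34 called tumor neighbours, Cnbd2 1 of 41 and Gm42031 5 of 46, against 9, 5 and 6 with the block.

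None of the 21 neighbours of Mpeg1 was called in the tumor samples by edgeR, with 3 at an unadjusted p under 0.05, 1 called by DESeq2 and 3 with the block. Ms4a6c and Ms4a6d, membrane proteins of macrophages, read 745 and 817 CPM and 935 and 937 CPM in WT and KO tumor samples. In normoxia they were higher in KO, by 2.13 and 1.08, with the calls lost in 4 and 7 of 13 alternatives. In hypoxia Ms4a4b rose (1.20), and Oosp1 (0.93) lost its call in 9 of 12 alternatives.

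Likeness of pattern was read from Pearson's r over the 22 libraries among 12452 genes tested in all experiments, again with each experiment centred. The genes share libraries and genotype differences, so r is a description. Closest to Cep85 and Cnbd2 was Gm43305 (0.97 and 0.975), followed by AC102496.1 (0.956 and 0.939) and Stk25 (0.943 and 0.918). Gm43305 and AC102496.1 each share a stretch with Cep85, Cnbd2 and Gm42031. Gm42031 was also closest to Gm43305 (0.974), with Glul and Ppfia4 next (0.917 each). Camk2b was most like Ppfia4 (0.981) and Glul (0.97), both on chromosome 1, and AC102496.1 (0.966). Ppfia4, a liprin of synapses, differed by 5.16 and Glul, glutamine synthetase, by 1.70 in the tumor samples.

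Mpeg1 was most like Chil1 (0.913) and Npl (0.912), both on chromosome 1, which differed by -7.73 and -4.03 in the tumor samples, and Tnfrsf23 (0.909). Grap was most like Fcgr2b (0.956), the inhibitory Fc receptor, Gmip (0.955) and Mrtfa (0.955). Pianp was most like Cdh23 (0.952), Fcrla (0.952) and Tmem131l (0.945). The chromosome 14 pair was most like Gm12663 (0.963 and 0.964), Arhgef18 (0.957 each) and Gm38158 (0.955 and 0.956). Gm12663 differed by 2.84, 2.74 and 3.79 in the 3 experiments.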

How the data were processed

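RNA of 22 libraries was made into libraries with a SMART-Seq kit of Takara, as the labels' protocols state. Per the submitters' processing notes, the authors used Subread, featureCounts and DESeq2 and the build GRCm38.p6, and versions and the strand setting are not given in the sources used here. The deposited raw tables hold whole read counts per gene, 1 table per experiment. The deposited normalized tables hold a signal that equals each count times 1 factor per library, and they served only as an alternative. The culture columns of the knockout carry a code in place of the genotype. They were taken as KO because WT columns are named so. All per-sample columns were used.

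Counts were fitted per experiment with edgeR 4.0.16 in R 4.3.3 (limma 3.58.1): filterByExpr, TMM scaling, robust quasi-likelihood fit and Benjamini-Hochberg adjustment over all genes, with a threshold of 0.05. A fit over all 16 culture libraries gave the average difference between hypoxia and normoxia. Alternatives were DESeq2 1.42.0, library size alone, no filter on low counts, other neighbour windows, a replicate block and leaving out each library. Gm27177 and Gm42031 were matched by Ensembl ID through GENCODE M21, and shared stretches were found with blastn 2.17.0 among its transcripts. Fold changes used a prior count of 0.125, and intervals of count ratios are exact 95% intervals that cover counting error only.

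The 9 genes and all lists were chosen with earlier results of these data known. Named neighbours are, for each of the 9 genes, up to 4 called genes with the largest difference, and each neighbour called in all 3 comparisons in 1 direction. Named family genes are up to 3 called genes with the smallest p per list and comparison, and like genes are the 3 with the highest Pearson's r. Genes that share a stretch, marker genes, Chd9, Ms4a6c and Ms4a6d in tumors and Rapgef2 with its list are given as members of their lists. Same-numbered tumor libraries deviated together weakly from their group means (correlations 0.247, 0.114 and 0.366), so the numbers may mark pairs there. Tumor calls, p-values and shares come from the unpaired fit unless the block is named. Blocked values stand beside tumor counts and calls that the block changes by more than 1.5 times. The block also called more of all tumor genes, so blocked counts do not compare with the unblocked share of all genes. No 2 libraries of a group agreed within sampling noise. A simulation gave every gene the same dispersion and placed changes only in genes well above the low-count limit. There, 2-fold changes were recovered for 85% of changed genes in normoxia (13792 genes) and 78% in hypoxia (14850). The share was 61% in the tumor design (14127) and 99% for the oxygen average (14996), and 4-fold changes gave 100% in each. These shares do not cover genes as low as Pianp or the chromosome 14 pair, nor genes with a larger spread.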

Additional observations from a re-analysis of the deposited data

Results flagged for a closer look

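Each group of 4 culture libraries was looked at for a library far from the others, for 36 combinations of gene and group, of which chance flags about 1 in 20. Of these, 2 stood out. Pianp read 0.0424 CPM in normoxia WT replicate 3, the only library of that group with a count. Camk2b read 3.27 CPM in hypoxia KO replicate 3, with a gap of 0.857 of the group's range to the next library.

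Among 36 named neighbours, 3 had every KO library on one side of WT in a culture and on the opposite side in the tumor samples. The difference between the experiments was not tested. Of all tested genes, 20%, 32.6% and 26.1% had no overlap in normoxia, hypoxia and tumor samples. The share of all genes that separated in opposite directions was not counted. Mapk7, near Grap, differed by 0.60 (normoxia), 0.87 (hypoxia) and -1.30 (tumor) on the log2 scale. Paqr7, a membrane progestin receptor near Cep85, differed by 0.26, 0.31 and -0.76, and the normoxia difference was not called. Sytl1, a vesicle-trafficking protein near Cep85, differed by 0.43, 1.03 and -1.18. Its tumor difference was not called in the main fit or in any of 10 alternatives.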

How the results depend on the processing

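No called result changed its direction under any alternative, while some differences near 0 that were not called changed sign, those of Mpeg1 and Gm42031 in normoxia and of Gm42031 between oxygen levels among them. Of all genes, 1577 were called in normoxia, 2399 with DESeq2, 2881 without KO replicate 4 and WT replicate 3 (chosen after seeing the data), 469 (without WT replicate 1) to 2233 with 1 library left out, and 2278 with the replicate block. In hypoxia 5245 were called, 3859 to 5703 with 1 library left out and 3942 with the block. For the tumors, 908 were called, 1363 with no filter, 2266 with the block and 444 (without KO replicate 1) to 1072 with 1 library left out. Of the neighbours, 48 were called in normoxia, 30 within 0.5 Mb, 79 without KO replicate 4 and WT replicate 3, 15 to 59 with 1 library left out and 56 with the block. In hypoxia 116 were called, 76 within 0.5 Mb, 181 within 2 Mb, 90 to 130 with 1 library left out and 88 with the block. In the tumor samples 32 were called, 53 within 2 Mb, 58 with the block and 12 to 32 with 1 library left out, and 20 without the neighbours of Pianp. The block thus raised the tumor calls among neighbours from 32 to 58 and those among all genes from 908 to 2266. Of the 9 genes, 7 were called for oxygen, 8 with library size alone, 6 to 7 with 1 library left out and 7 with the block. Of the family genes 12 were called in normoxia, 21 with DESeq2 and 19 with the block. The cause of these shifts was not tested. Same-numbered culture libraries did not pair consistently (correlations 0.0375, 0.518, 0.174 and -0.106 in normoxia, -0.163, -0.22, -0.327 and 0.0273 in hypoxia). The fitted differences of Gm16867, Gm27177 and Pianp moved beyond the spread in 10, 7 and 15 combinations of gene and alternative in normoxia, hypoxia and tumor samples, and those of the other 6 genes did not move beyond the spread.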
